A study of Rattus norvegicus with 4 samples.

Results

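The genes described here encode enzymes that pass signals inside the cell by adding or removing phosphate groups, or subunits and partners of such enzymes. The genes cover MAP kinases, protein kinases A, C and B (Akt), AMP-activated and calmodulin-dependent kinases, and the serine/threonine and tyrosine phosphatases that act against them. They were chosen by name from the annotation of the array: a probe was a member if its gene symbol began with Mapk, Map2k, Map3k, Prkc, Prka, Camk, Akt, Pik3, Rps6k, Jak, Ppp1, Ppp2, Ppp3, Ptpn, Ptpr or Dusp, or was Abl1. The rule found 74 of the 1936 probes, and these belong to 53 of the 958 named genes that were tested. No probe with several symbols met the rule, and no Ppp3 (calcineurin) gene was among the members.

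Liver RNA came from the right lateral lobe of male Sprague-Dawley rats killed 12 h after surgery. In one group the common bile duct was tied off, which blocks the outflow of bile, and in the sham group it was only exposed. RNA of 3 rats per group was pooled, so no value shows the spread between animals, and 4 two-colour cDNA arrays each carried both pools. Ligated RNA was labelled with Cy5 on arrays 1 and 3 and with Cy3 on arrays 2 and 4. The arrays are not known to come from separate pools, so p-values measure the spread between hybridisations. The deposited values are log ratios of unstated base and direction. They were read as log2 of ligated over sham on every array, which is the likely reading because channel 2 held the ligated RNA throughout, and each was set relative to the median of its array. A ratio carries no level, so the liver identity of the tissue was not checked on marker levels, and in whole liver fewer cells of a type and less RNA per cell cannot be told apart.

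Protein kinases transfer phosphate from ATP to other proteins, and phosphatases remove it. In a MAP kinase cascade, kinases activate each other in series from the membrane to the nucleus, and dual-specificity phosphatases switch the last kinase off. In hepatocytes glucagon acts through cAMP and protein kinase A, insulin through phosphoinositide 3-kinase and Akt, and cytokines and growth hormone through Janus kinases, while bile acids are known to engage several of these routes. These enzymes are controlled largely by phosphorylation itself, which RNA arrays do not measure.

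Of the 53 signalling genes, 11 passed the test and 42 did not. With limma and a Benjamini-Hochberg adjusted threshold of 0.05, Dusp5, Mapk6, Aktip, Prkar1a, Ppp2cb, Ptpn21, Ppp1ca and Abl1 were higher in the ligated pool, which is 8 genes or 15.1%, against 11.7% of all 958 named genes. Prkar2a, Prkab1 and Prkaa2 were lower, which is 3 genes or 5.66%, against 15.4%. The calls were 3 higher and 3 lower without array 1, 4 and 2 without array 2, 8 and 1 without array 3, and 3 and 1 without array 4, and Dusp5, Mapk6 and Prkar2a passed in each of those fits. Subunits and partners were counted with the family they are named for. In the kinase families 4 of 38 genes were higher and 3 lower, and in the phosphatase families 4 of 15 were higher and 0 lower. At an unadjusted p under 0.05 there were 11 of the 38 and 5 of the 15, against 346 of the 958 named genes. The members' median was 0.03 (0.0345) on the log2 scale, against -0.01 (-0.013) over all named genes. None of the 53 reached a 1.5-fold difference, a size reached by 5.85% of the named genes, and the largest was 1.42-fold for Dusp5. This order belongs to the reading and the centring used: read as Cy5 over Cy3, Ppp1cb (0.79 on the log2 scale), Ptprn (0.76; 0.7551), Prkar1a (0.74) and Mapk12 (0.73) are among the members past 1.5-fold, and without centring Prkar2a (-0.79), Prkab1 (-0.69) and Prkaa2 (-0.60; -0.5970) are. The median absolute difference was 0.11 (0.1116) for the members and 0.10 (0.1049) for all named genes, with a median standard error of 0.08 (0.0751) for a member.

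**Figure D1:**
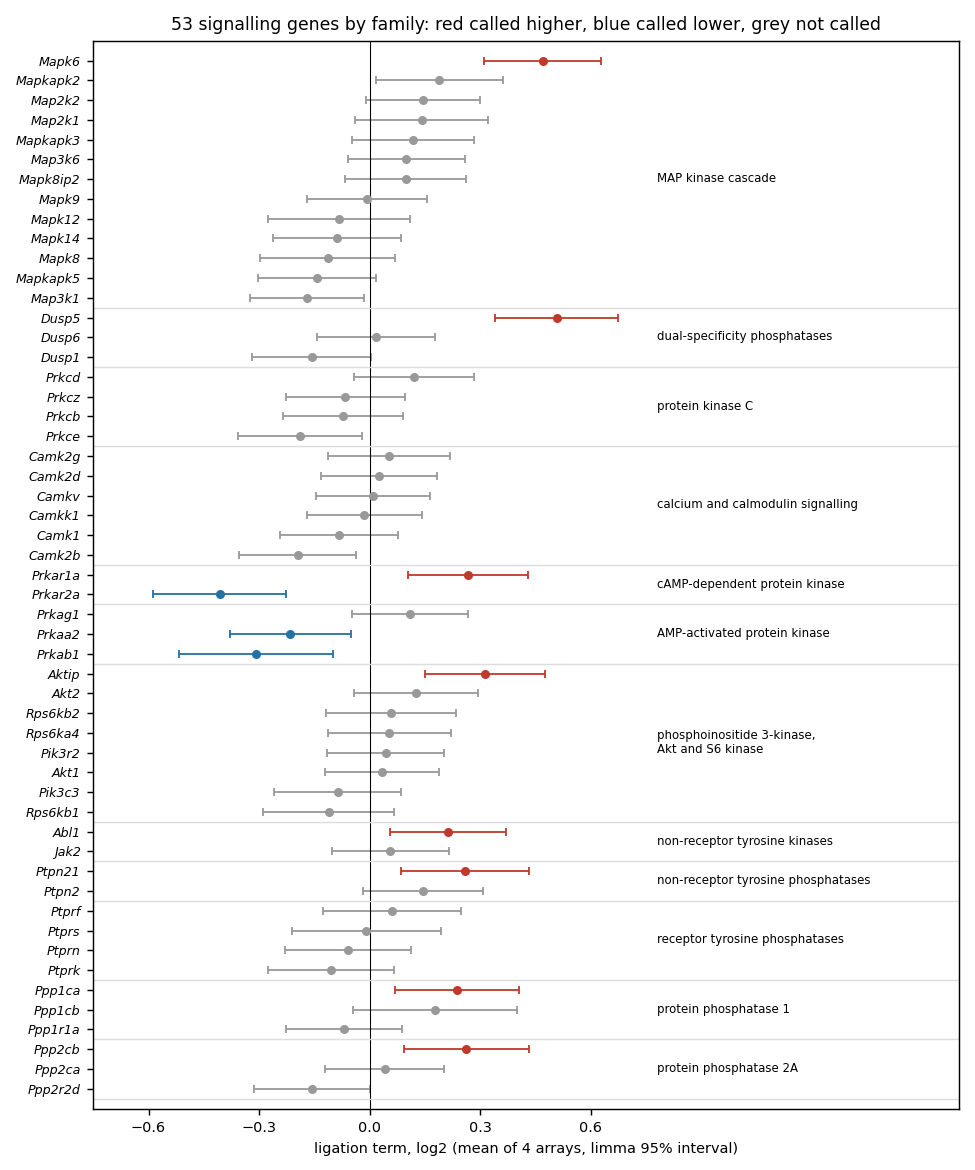
The ligation term of each of the 53 signalling genes (log2, mean of 4 arrays relative to the array median, with limma's 95% interval), grouped by family. The 8 genes called higher (red) lie between 0.21 and 0.51, the 3 called lower (blue) between -0.41 and -0.22, and the 42 others (grey) between -0.19 and 0.19.

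These directions depend on where zero is set. Without centring on the array median the 53 genes had a median of -0.35 and all named genes one of -0.39, none was called higher (1.15% of named genes were) and 42 were called lower (82.6% of named genes). With centring on the tested features alone the split was 9 higher and 1 lower, and the same split came with centring on the probes with the highest dye terms, a setting chosen after seeing the data. The dye term of a gene is the mean of arrays 1 and 3 minus that of arrays 2 and 4, divided by 2.

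Among 13 genes of the MAP kinase cascade, Mapk6 was the single one called, and it was higher. Over all named genes 27.1% were called. Mapk6 encodes ERK3, an atypical MAP kinase that is known for its rapid turnover as a protein. Its centred log2 ratios were 0.83, -0.013, 0.94 and 0.12 on arrays 1 to 4. The arrays with ligated RNA in Cy5 were high, and array 2 was just below zero. The mean was 0.47 ± 0.07 (SE, 4 arrays; 1.39-fold, limma adjusted p = 0.000303), and the call held without any one of the arrays, with means from 0.44 to 0.50. Without centring the mean was 0.09 (0.0884) and did not pass.

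The other 12 genes of the cascade lay between -0.17 and 0.19. Upstream, Map3k1, a kinase that activates the JNK branch, was at -0.17 ± 0.07 (limma adjusted p = 0.0987), and the MEK kinases Map2k1 and Map2k2, which activate ERK, were at 0.14 and 0.15. The means of the stress kinases were close to zero, with the JNK genes Mapk8 at -0.11 and Mapk9 at -0.01 (-0.0080). The p38 genes Mapk14 and Mapk12 were at -0.09 (-0.0891) and -0.08 (-0.0831). These means average values of opposite sign for Mapk9, Mapk14 and Mapk12, whose dye terms were 0.51, 0.58 and 0.73. All 3 genes lay above the median on arrays 1 and 3 and below it on arrays 2 and 4. The 95% interval of Mapk14 ran from -0.26 to 0.08 (0.0840). Downstream, Mapkapk2, the kinase that p38 activates, was at 0.19 ± 0.08 and missed the threshold (adjusted p = 0.0984), but it passed with centring on the tested features (0.23 at adjusted p = 0.0463), and Mapkapk3 and Mapkapk5 were at 0.12 and -0.14. Map3k6 and the scaffold protein Mapk8ip2 were at 0.10 (0.0994) and 0.10 (0.0973).

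Of 3 dual-specificity phosphatases 1 was called, and it was higher, against 11.7% of named genes called higher. Dusp5, a nuclear phosphatase that inactivates ERK and is itself induced by ERK signalling, was the highest of all 53 genes. Its ratios were 0.29, 0.63, 0.57 and 0.54 on arrays 1 to 4, above the array median on all 4. The mean was 0.51 ± 0.08 (SE, 4 arrays; limma adjusted p = 0.000254), and between 0.44 and 0.58 when any one array was left out, each time past the threshold. Without centring it was 0.13 and did not pass.

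Dusp6, the cytoplasmic phosphatase for ERK, was at 0.02 (0.0167) ± 0.07, and its 3 probes lay between -0.032 and 0.07 (0.0651). Dusp1, which acts on p38 and JNK as well as ERK and is an immediate-early gene, was at -0.16 ± 0.07 (limma adjusted p = 0.143). Its ratios were 0.43 and 0.21 on arrays 1 and 3 and -0.65 and -0.63 on arrays 2 and 4. The values of Dusp1 thus differed in sign between the dye orientations, and read as Cy5 over Cy3 the gene would be called higher (0.48, adjusted p = 6.6e-05). The 4 values of Dusp5 shared a sign. Of the 53 members, 5 had the same sign on all 4 arrays (9.43%, against 12.6% of named genes): Dusp5 and Aktip above the median, and Prkar2a, Prkaa2 and Camk2b below it.

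Dusp5 and Mapk6 had the largest estimates. Stretches upstream of their start sites are shown because, among called members with a promoter sequence, only these held TGACG there. Each window was placed around that match, so its presence in both follows from the choice. The sequences are RefSeq's, of build GRCr8, and 46 of the 53 members, 9 of the 11 called ones included, had an entry of 300 bases (250 before the annotated start and 50 after it). Capitals mark the CArG box, the core of the serum response element, and TGACG, the half-site of the cAMP response element, searched on both strands. The stretch of Dusp5 is chr1:262543689-262543748, forward strand, from 85 to 26 bases before the start, and that of Mapk6 is chr8:85050257-85050316, reverse strand, from 80 to 21 bases before it.
Dusp5: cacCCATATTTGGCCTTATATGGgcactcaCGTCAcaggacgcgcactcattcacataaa
Mapk6: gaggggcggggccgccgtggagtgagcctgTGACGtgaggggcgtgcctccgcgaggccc

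The Dusp5 stretch holds 2 CArG boxes side by side, followed by the half-site on the opposite strand. No other of the 46 member promoters held a CArG box, which was present in 12 of 844 promoters of named genes on the array (1.42%) and in 1.64% of all 33469 promoters of this length. The half-site TGACG was in 18 of the 46 member promoters (39.1%), against 26.2% for the genes on the array and 21.2% of all promoters, and among the 9 called members with an entry it was found in Dusp5 and Mapk6. The full element TGACGTCA, which contains the half-site, was in 4 member promoters, those of Dusp1, Ppp2ca, Ppp2r2d and Ptprs, none of them called, and in 2.61% of promoters of genes on the array. The median GC content was 68.5% for member promoters and 60.7% for the genes on the array. Such matches describe the letters in the window and were not tested for binding.

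**Figure D2:**
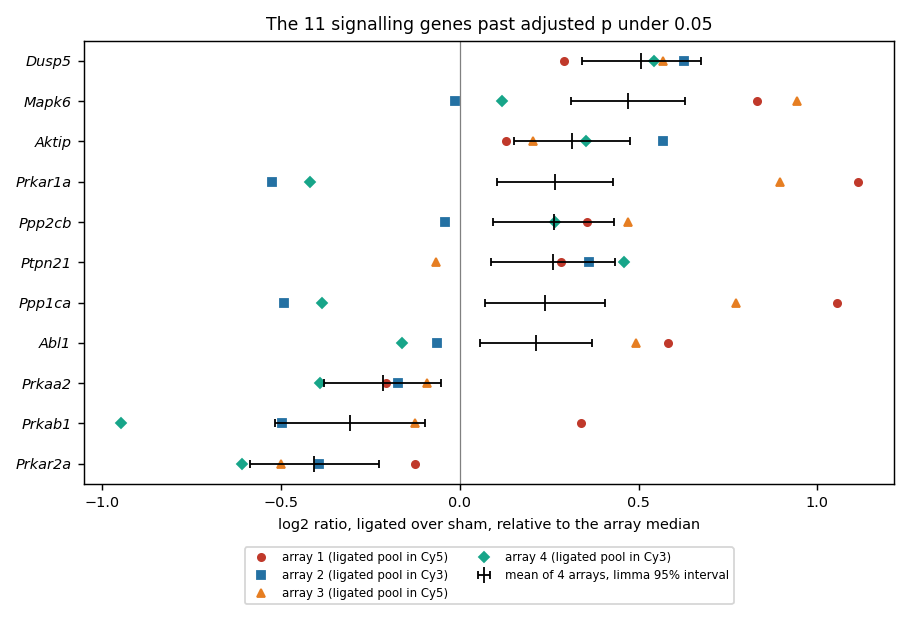
Centred log2 ratio on each of the 4 arrays for the 11 signalling genes past adjusted p under 0.05, with the mean and limma's 95% interval (black). Dusp5 and Aktip lie above zero and Prkar2a and Prkaa2 below it on all 4 arrays, while Prkar1a, Ppp1ca and Abl1 lie above zero on arrays 1 and 3 and below it on arrays 2 and 4.

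Both measured subunits of protein kinase A were called, in opposite directions, against 27.1% of named genes called. They are regulatory subunits, which hold the catalytic subunit inactive until cAMP binds. Prkar2a, the type II-alpha subunit that anchoring proteins tether to membranes, had ratios of -0.13, -0.39, -0.50 and -0.61 on arrays 1 to 4. All 4 were below the array median. The mean was -0.41 ± 0.08 (SE, 4 arrays; limma adjusted p = 0.00236), it ranged from -0.50 to -0.31 when one array was left out, each time past the threshold, and it was -0.79 without centring. Prkar1a, the type I-alpha subunit, had ratios of 1.11 and 0.90 on arrays 1 and 3 and of -0.52 and -0.42 on arrays 2 and 4.

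The sign of Prkar1a differed between the dye orientations. Its mean was 0.27 ± 0.08 (0.0750; limma adjusted p = 0.0175), against a dye term of 0.74. The call did not hold without array 1 (0.21 at adjusted p = 0.0774) or array 4 (0.24 at adjusted p = 0.139), and the mean was -0.12 without centring.

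Of 3 subunits of AMP-activated protein kinase, the sensor of low cellular energy, 2 were called lower, against 15.4% of named genes. Prkab1, the beta-1 scaffold subunit, had ratios of 0.34, -0.50, -0.13 and -0.95 on arrays 1 to 4, with array 1 alone above the median. The mean was -0.31 ± 0.10 (0.0963; SE, 4 arrays; limma adjusted p = 0.0296). It lost its call without array 3 (-0.19 at adjusted p = 0.253) or array 4 (-0.19 at adjusted p = 0.266) and with centring on the tested features (adjusted p = 0.06) or quantile normalization (adjusted p = 0.0584).

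Prkaa2, the catalytic alpha-2 subunit, had ratios of -0.21, -0.17, -0.09 (-0.0909) and -0.39 on arrays 1 to 4. They were below the median on all 4 arrays but small, with a mean of -0.22 ± 0.08 (0.0752; limma adjusted p = 0.049). This was the member nearest to the threshold, and the call was lost without any one of the 4 arrays (adjusted p from 0.0692 to 0.4). Prkag1, the gamma-1 subunit that binds AMP, was at 0.11 ± 0.07 and did not pass, but it was called higher with centring by print block (0.21, adjusted p = 0.0275), a setting chosen after seeing the data.

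In the insulin branch, the 8 genes named for phosphoinositide 3-kinase, Akt and S6 kinases gave 1 call, for a gene that is no kinase. Over all named genes 27.1% were called. Aktip encodes a protein that binds Akt and belongs to a complex with Hook proteins in vesicle traffic. Its ratios were 0.13, 0.57, 0.21 and 0.35 on arrays 1 to 4, all above the median. The mean was 0.31 ± 0.07 (SE, 4 arrays; limma adjusted p = 0.00637), and it did not pass without array 2 (0.26 at adjusted p = 0.089) or without centring (-0.068).

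The Akt genes themselves did not pass. Akt1 was at 0.03 (0.0345) ± 0.07, with a 95% interval from -0.12 to 0.19. Akt2, the main isoform of insulin-responsive tissues, was measured by 4 probes at 0.32, 0.24, 0.10 and -0.15, which differ in sign, and their average was 0.13 ± 0.08 (limma adjusted p = 0.281). Tested by themselves, the upper 2 probes of Akt2 passed (adjusted p = 0.0207 and 0.0362). The remaining genes lay between -0.11 and 0.06 (0.0582): the p85-beta subunit Pik3r2, which regulates class I phosphoinositide 3-kinase, was at 0.04 (0.0431), the autophagy lipid kinase Pik3c3 at -0.09 (-0.0872), the S6 kinases Rps6kb1 and Rps6kb2 at -0.11 and 0.06 (0.0582), and Rps6ka4, a nuclear kinase activated by ERK and p38, at 0.05 (0.0532).

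No gene of the protein kinase C or calmodulin-dependent groups passed limma's adjusted threshold. At an unadjusted p under 0.05 there was 1 of 4 protein kinase C genes and 1 of 6 calmodulin-dependent ones, against 346 of the 958 named genes. The epsilon isoform Prkce, a calcium-independent form, was farthest from zero in the first group, with ratios of 0.03 (0.0333), -0.22, -0.28 and -0.29 on arrays 1 to 4 and a mean of -0.19 ± 0.08 (adjusted p = 0.0948). It passed in the fit without array 1. Prkcd, a calcium-independent isoform activated by diacylglycerol, was at 0.12, with its 3 probes from 0.05 (0.0521) to 0.22, while Prkcb was at -0.07 (-0.0724) and the atypical isoform Prkcz, measured by 3 probes, was at -0.07 (-0.0662).

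In the calcium group Camk2b, the beta chain of calmodulin-dependent kinase II, stood farthest out. Its ratios were -0.17, -0.32, -0.13 and -0.16 on arrays 1 to 4, below the median throughout, and its mean was -0.19 ± 0.07 (limma adjusted p = 0.066). It was the first member outside the threshold, as Prkaa2 was the last inside it. Camk2d and Camk2g, other chains of the same kinase, were at 0.03 (0.0252) and 0.05 (0.0518), Camk1 was at -0.08 (-0.0832), the upstream kinase Camkk1 at -0.02 (-0.0153), and the vesicle-associated Camkv, a relative without known kinase activity, at 0.01 (0.0103).

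Of the tyrosine kinases, Abl1 was called higher and Jak2 did not pass. Abl1 encodes a kinase of cytoplasm and nucleus that acts on the actin cytoskeleton and in the response to DNA damage. Its ratios were 0.58 and 0.49 on arrays 1 and 3 and -0.06 (-0.0647) and -0.16 on arrays 2 and 4, so the sign again differed between the dye orientations. The mean of 0.21 ± 0.07 (limma adjusted p = 0.0442) lost its call without any one of the arrays (adjusted p from 0.057 to 0.279). Jak2, the kinase bound to the growth hormone receptor, was at 0.06 (0.0565) ± 0.07, with its 3 probes between 0.01 (0.013) and 0.14.

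The tyrosine phosphatases gave 1 call among 6 genes, against 27.1% of named genes called. Ptpn21, a cytoplasmic phosphatase with a FERM domain, had ratios of 0.28, 0.36, -0.066 and 0.46 on arrays 1 to 4, with array 3 alone below the median. Its 2 probes had means of 0.31 and 0.21 but differed by array. On arrays 1 to 4 the first had 0.06 (0.0617), 0.66, 0.01 (0.0055) and 0.51, and the second 0.51, 0.07 (0.0678), -0.14 and 0.41. Tested by themselves, the first passed limma's threshold (adjusted p = 0.00875) and the second did not (adjusted p = 0.168). The mean of the gene was 0.26 ± 0.08 (limma adjusted p = 0.0273). The call was lost without array 1 (0.17 at adjusted p = 0.134), array 2 (0.28 at adjusted p = 0.058) or array 4 (0.24 at adjusted p = 0.149), and the mean was -0.12 without centring. Ptpn2, which dephosphorylates Janus kinases and STAT proteins, was at 0.14 ± 0.07 (adjusted p = 0.185).

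Receptor-type phosphatases span the membrane and were represented by Ptprf, Ptprs, Ptprk and Ptprn. None of the 4 passed limma's adjusted threshold, which 27.1% of named genes passed, or an unadjusted p of 0.05. Ptprk had the largest estimate, -0.10 (-0.1043) ± 0.08, with ratios of 0.27, -0.62, 0.23 and -0.29 on arrays 1 to 4. Ptprf, known as LAR and able to act on the insulin receptor, was at 0.06 (0.0609), with a 95% interval from -0.13 to 0.25.

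Catalytic subunits of protein phosphatases 1 and 2A, which remove phosphate from serine and threonine, gave 1 call each, both higher. Over all named genes 11.7% were called higher. Ppp1ca, the alpha catalytic subunit of phosphatase 1, which in liver takes part in the control of glycogen metabolism, had ratios of 1.05 and 0.77 on arrays 1 and 3 and -0.49 and -0.39 on arrays 2 and 4. Its mean of 0.24 ± 0.08 (limma adjusted p = 0.0362) came from probes that differed, at 0.44 and 0.03 (0.0319), of which the first passed when probes were tested by themselves. The call was lost without array 1 (0.17 at adjusted p = 0.148), array 2 (0.26 at adjusted p = 0.0828) or array 4 (0.21 at adjusted p = 0.213) and with quantile normalization (0.18 at adjusted p = 0.0573). Ppp1cb, the beta catalytic subunit, was at 0.18 ± 0.10 (adjusted p = 0.244; 0.36 at adjusted p = 0.0148 without array 3), and Ppp1r1a, inhibitor 1, which blocks phosphatase 1 once protein kinase A has phosphorylated it, was at -0.07 (-0.0694), with its 3 probes from -0.18 to 0.04 (0.0386).

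Ppp2cb, the beta catalytic subunit of phosphatase 2A, had ratios of 0.36, -0.041, 0.47 and 0.27 on arrays 1 to 4, with array 2 alone just below the median. Its 2 probes were close in mean, at 0.29 and 0.23, but differed in sign on arrays 1, 2 and 4. On arrays 1 to 4 the first had -0.14, 0.38, 0.34 and 0.59, and the second 0.85, -0.46, 0.60 and -0.06 (-0.0583). Tested by themselves, the first passed limma's threshold (adjusted p = 0.0287) and the second did not (adjusted p = 0.0718). The mean of the gene was 0.26 ± 0.08 (limma adjusted p = 0.0234). The call was lost without array 1 (0.29 at adjusted p = 0.0511), array 3 (0.23 at adjusted p = 0.106) or array 4 (0.19 at adjusted p = 0.297), and the mean was -0.12 without centring. Its close relative Ppp2ca was at 0.04 (0.0404) ± 0.07, and the regulatory B subunit Ppp2r2d was at -0.16 ± 0.07 (adjusted p = 0.134), with probes at -0.30 and -0.011. The catalytic subunits of each phosphatase have similar coding sequences. No probe sequences were available, so whether the probes tell the isoforms apart was not tested, and the isoform behind these values is not certain.

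Other genes of the same pathways were counted from a list of 127 names, of which 34 were on the array. Of these, 7 were called higher (20.6%) and 2 lower (5.88%), against 11.7% and 15.4% of named genes. The list was made with earlier results of these data known, so these shares only describe the genes on it. Around the MAP kinases 3 of 7 were higher: the transcription factor Myc at 0.56 ± 0.08, Egr1, an immediate-early target of ERK, at 0.44 ± 0.09, and the small GTPase Cdc42 at 0.30 ± 0.08. Fos, another immediate-early gene, was at -0.07 (-0.0730). Myc lay above the array median on all 4 arrays. Egr1 had ratios of -0.32 and 0.13 on arrays 1 and 3 and of 0.88 and 1.07 on arrays 2 and 4. Cdc42 differed in sign between the dye orientations, with 0.97 and 0.67 on arrays 1 and 3 and -0.22 and -0.20 on arrays 2 and 4. Cdc42 lost its call without array 1 (0.23 at adjusted p = 0.0558), and without centring all 3 did.

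Of 4 measured genes listed for protein kinase C and calcium signalling, 2 were called higher, against 11.7% of named genes. They were the annexin partner S100a10 at 0.57 ± 0.08 and calmodulin Calm2 at 0.36 ± 0.08, neither called without centring. The sign of Calm2 differed between the dye orientations, with 1.19 and 0.91 on arrays 1 and 3 and -0.39 and -0.28 on arrays 2 and 4. In the Janus kinase pathway the growth hormone receptor Ghr was higher at 0.32 ± 0.10 (0.0993), while the interferon receptor chain Ifnar1 (-0.42 ± 0.07) and the transcription factor Stat5b, which growth hormone activates (-0.35 ± 0.09), were lower, and 5 of 8 did not pass. Ghr lost its call without array 2 (0.22 at adjusted p = 0.188) or array 3 (0.18 at adjusted p = 0.263), and Stat5b without array 3 (-0.27 at adjusted p = 0.0736) or array 4 (-0.27 at adjusted p = 0.0743). Of 7 Src-family and adhesion kinases, Src was higher at 0.35 ± 0.08, but -0.036 without centring. None of 3 genes of cAMP signalling or 5 around Akt, among them the kinases Pdpk1 and Gsk3b, passed limma's adjusted threshold or an unadjusted p of 0.05.

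Marker lists of other liver cells were thinly covered. The leukocyte and Kupffer cell list had 2 of 11 genes on the array, both called lower (-0.33 and -0.27). The endothelial list had 3 of 6: Ece1 (-1.18) and Kdr (-0.33) were called lower, and Cdh5 (0.09; 0.0926) was not called. The cholangiocyte list had 3 of 7: Anxa5 (0.95) was called higher, and Spp1 (0.14) and Cd24 (-0.05; -0.0493) were not called. The stellate cell list had 1 of 6, which was called lower (-0.23). Over all named genes 15.4% were called lower and 11.7% higher. The leukocyte genes varied with the dye orientation. On arrays 1 to 4, Ccl5 had ratios of 0.07 (0.0730), -0.80, 0.01 (0.0115) and -0.61, and Cd53 of 0.13, -0.52, -0.12 and -0.55. The part of cell composition in the signalling genes was not tested.

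Which of the fitted terms belongs to the dye depends on the direction of the ratio. Under ligated over sham, the dye term exceeded the ligation term in absolute size for 39 of the 53 genes. It passed adjusted p under 0.05 for 33 of them (62.3%, against 78% of named genes) and ran from -0.63 for Camkk1 to 0.79 for Ppp1cb. Across the 74 member probes, which are not independent replicates, Pearson's r was 0.89 between arrays 1 and 3 and 0.90 (0.8965) between arrays 2 and 4, and between -0.75 and -0.60 (-0.5995) for arrays of opposite dye orientation. Over all 1936 probes r was 0.93, 0.94 and between -0.45 (-0.4475) and -0.28 for the same pairs. A mean over the arrays without a dye term gave no limma call among the 53 members or the 958 named genes, with 1 member and 52 named genes at an unadjusted p under 0.05.

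**Figure D3:**
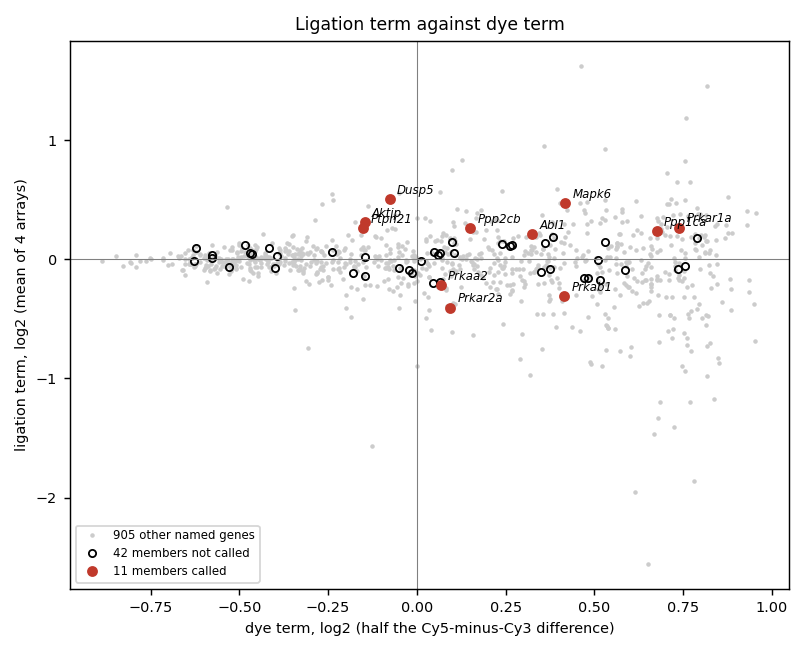
The ligation term (log2, mean of 4 arrays) against the dye term for 905 other named genes (grey), 42 signalling genes not called (open circles) and 11 called (red). Signalling genes with a dye term at or below -0.4 lie between -0.07 (-0.0724) and 0.12 on the ligation axis, and called members have dye terms from -0.15 (-0.1506) to 0.74.

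The size of the ligation term varied with the dye term. The 10 members with a dye term at or below -0.4 had ligation terms from -0.07 (-0.0724) to 0.12, with 0 called by limma. Among these are Camkk1, Camkv, Prkcz, Prkcb, Mapk8ip2 and Ppp2ca. Of the 30 members with a dye term nearer to zero 7 were called, and of the 13 at or above 0.4 there were 4. Over all named genes the counts in these ranges were 2 of 184, 109 of 474 and 149 of 300, and the median absolute ligation term was 0.04 (0.0410), 0.10 (0.1001) and 0.23. No intensities were used, so signal over background of these spots is unknown, and its part in this pattern was not tested.

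For 14 members measured by more than 1 probe, probes of a gene lay closer together in the ligation term than in the dye term in most cases. The median distance between the outermost probes of a gene was 0.11 (0.1101) for the ligation term and 0.53 for the dye term, and it was the smaller one for the ligation term in 12 of the 14 genes, Akt2 and Ppp1ca being the others. The same held for 247 of the 340 named genes with more than 1 probe. The median absolute dye term (0.36) also exceeded the median absolute ligation term (0.11; 0.1116), so this comparison does not settle the direction of the ratio. The widest case was Ppp1r1a, whose 3 probes had dye terms of 0.78, -0.24 and -0.70 but ligation terms from -0.18 to 0.04 (0.0386). For Dusp6, probes with dye terms of -0.53, -0.49 and 0.58 gave ligation terms of -0.032, 0.02 (0.0170) and 0.07 (0.0651). Mapk9 was spotted at 2 places from the same clone, and its spots gave -0.044 and 0.03 (0.0282).

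**Figure D4:**
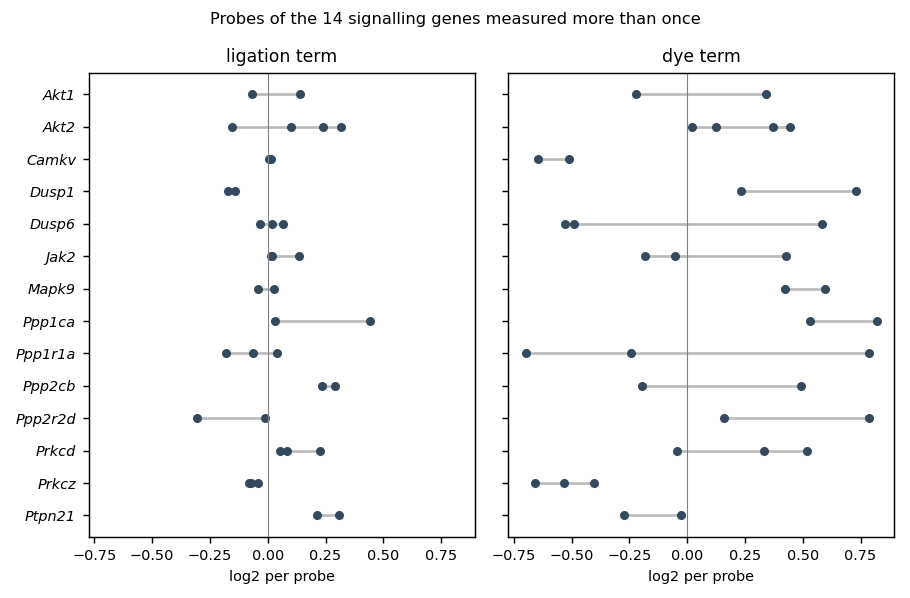
Ligation term (left) and dye term (right) of each probe, in log2, for the 14 signalling genes with more than 1 probe; the grey bar joins the outermost probes of a gene. Probes of Dusp6, Ppp1r1a, Jak2 and Ppp2cb lie within 0.23 of each other on the left and more than 0.6 apart on the right.

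Had each probe been tested by itself, 10 of the 74 member probes would have been called higher and 3 lower, against 11.8% and 16.1% of the 1648 probes tested. Ppp2r2d gained a call in this way, for 1 of its probes (-0.30 at adjusted p = 0.0246), and so did 1 probe of Prkcd (0.22 at adjusted p = 0.049), while Abl1 (adjusted p = 0.062) and Prkaa2 (adjusted p = 0.0665) lost theirs.

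If the table were instead Cy5 over Cy3 on every array, what is here the dye term would be the ligation effect. Then 21 members would be called higher and 12 lower, against 45.2% and 32.8% of named genes. Of the 11 calls given above, 4 would keep their direction (Mapk6 at 0.42, Prkar1a at 0.74, Ppp1ca at 0.68 and Abl1 at 0.33), Prkab1 would be called in the opposite direction (0.41), and the other 6, Dusp5 and Prkar2a among them, would not pass. Mapk6 is thus called higher under both readings, with limma adjusted p = 0.000181 under the other one, whereas Dusp5 would be at -0.077 (adjusted p = 0.37). The readings only swap the 2 terms, so a call under both does not mean that the dye orientations agree. Mapk6 was at 0.83 and 0.94 on arrays 1 and 3 but at -0.013 and 0.12 on arrays 2 and 4. Dusp5 was above the array median on all 4 arrays. The probes of 1 gene would then differ in sign for 6 of the 14 genes with several probes (Dusp6, Ppp1r1a, Akt1, Jak2, Ppp2cb and Prkcd), and under ligated over sham they did so for 5 (Akt1, Akt2, Dusp6, Mapk9 and Ppp1r1a).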

How the data were processed

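Per the labels, poly(A) RNA from pooled liver RNA was labelled with Cy3 or Cy5 and hybridised to a glass cDNA array. The authors deposited 1 log2 ratio per probe and array (base 2 is assumed, direction unstated); scanning, background correction and normalization count as not given in the sources used here. Column medians as deposited were -1.26, 0.43, -0.96 and 0.26. Each array was centred on its median, and 288 spots at the 18 positions unnamed in all 16 print blocks, taken as controls, were left out of tests. Probes of 1 symbol were averaged, which gave 1174 features (958 named genes). A limma 3.58.1 model (R 4.3.3) with a ligation and a dye term was fitted to all features, with eBayes (prior SD 0.155 on 10.4 degrees of freedom, 2 residual) and Benjamini-Hochberg adjustment over all of them. The fit was tested on simulated data. Symbols came from the platform annotation, and all 53 matched the RefSeq table of assembly GRCr8 by gene number.

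Values by array are given for called members and for the farthest gene of a group without a call. Outside that rule they are given for Dusp1 and for some neighbour and marker genes. Other members are named to show the range of their family. Members, lists and tests were chosen with earlier results of these data known. Alternatives covered centring, normalization, direction, dye term, probe averaging, control spots, prior and each array left out. Depth cannot be given for ratios, and the number of arrays limits precision.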

Additional observations from a re-analysis of the deposited data

How the results depend on the processing

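Calls are few and mostly near the threshold, so their counts depend on the setting. The 8 higher and 3 lower members became 7 to 9 higher and 1 to 3 lower under quantile normalization, centring on the tested features (9 and 1), averaging by the median, a robust prior, retained control spots, and the settings added after seeing the data, which were print-block centring and centring on the upper quartile of the dye term (9 and 1). Leaving out 1 array at a time gave 3 to 8 higher and 1 to 3 lower, with members' medians from 0.01 (0.0149) to 0.04 (0.0367). Dusp5, Mapk6 and Prkar2a passed in each of these fits. Similar counts need not be of the same genes: print-block centring lost Abl1, Ppp1ca, Prkaa2 and Ptpn21 and gained Mapkapk2 and Prkag1. Without a dye term 0 were higher and 0 lower.

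Without centring, 0 members were called higher and 42 lower (median -0.35), as every gene moved down by the array medians. Called genes whose sign turned were Abl1 -0.17, Aktip -0.068, Ppp1ca -0.14, Ppp2cb -0.12, Prkar1a -0.12, Ptpn21 -0.12, Calm2 -0.025, Cdc42 -0.078, Ghr -0.064 and Src -0.036, none of them called there. In all, 39 members not called before were called lower there, and those among them whose sign turned were Akt1 -0.35, Akt2 -0.26, Camk2d -0.36, Camk2g -0.33, Camkv -0.37, Dusp6 -0.36, Jak2 -0.33, Map2k1 -0.24, Map2k2 -0.24, Map3k6 -0.28, Mapk8ip2 -0.28, Mapkapk3 -0.26, Pik3r2 -0.34, Ppp2ca -0.34, Prkag1 -0.27, Prkcd -0.26, Ptprf -0.32, Rps6ka4 -0.33 and Rps6kb2 -0.32.

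Read as Cy5 over Cy3, 21 members were called higher and 12 lower. Called genes with the opposite sign were Aktip -0.15, Dusp5 -0.077, Prkaa2 0.067, Prkab1 0.41, Prkar2a 0.093, Ptpn21 -0.15, Egr1 -0.54, Ghr -0.18, Ifnar1 0.034 and Stat5b 0.29, of which Prkab1, Stat5b and Egr1 passed. Genes not called before and called with the opposite sign were Camk1 0.37, Camk2d -0.39, Camkv -0.58, Dusp1 0.48, Map3k1 0.52, Map3k6 -0.42, Mapk12 0.73, Mapk14 0.58, Mapk8ip2 -0.62, Mapk9 0.51, Mapkapk3 -0.49, Pik3r2 -0.46, Ppp2ca -0.58, Ppp2r2d 0.47, Ptprf -0.24, Ptprk 0.35, Ptprn 0.76 and Rps6ka4 -0.47.

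No member had a single array far enough from the other 3 to be singled out. No replicate block applied, because each array holds both pools. The 3 rats of a pool cannot be separated, and whether the arrays repeat 1 pair of pools is unknown.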
